A study of Mus musculus with 18 samples.

Results

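Gene levels of mouse embryonic fibroblasts of a knockout line for Nfat5 (KO) were set against those of a line with intact Nfat5 (WT), both kept in hypertonic medium. The members are the 3 arrays titled KO and the 3 arrays titled WT with the number 500, 6 of 18 arrays in all, and each side carries the array numbers 1, 2 and 4. Both lines are of the strain 129sv/ev, and the genotype labels call them NFAT5 knock-out 5.1 and NFAT5 wild-type 5.4. The same lines were also measured in isotonic medium, titled 300, with 3 arrays each, and 2 further WT groups were pretreated for 1 h with 100 nM Torin1. The titles give 500 and 300 with no unit, and the labels give no time in hypertonic medium and do not say which part of Nfat5 was removed. With 1 line per genotype, the knockout and any other difference between the lines cannot be told apart. The labels do not say that arrays of 1 group are separate cultures, and the p-values cover the spread among these arrays alone, which may be technical. Isotonic KO array 1 carries a wild-type genotype label against its KO title and was kept as KO. Without it 4877 genes passed for the hypertonic difference, against 5007 with it. For the isotonic difference 1728 passed against 2298, and for the dependence on the medium 1033 against 1492. Leaving out isotonic KO array 2 instead gave similar counts, 1724 for the isotonic difference and 1076 for the dependence on the medium. Over genes, isotonic KO array 1 correlated with isotonic KO arrays 2 and 4 at 0.995 and 0.979.

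NFAT5, also called TonEBP, is a transcription factor of the Rel family that becomes active when the medium around a cell turns hypertonic. It binds tonicity-responsive elements beside genes that import or make organic osmolytes such as myo-inositol, betaine and taurine, and beside genes for chaperones. Organic osmolytes let a shrunken cell regain volume without raising its salt content. Outside the kidney NFAT5 is also known as a regulator of cytokine genes in immune cells.

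All 6 arrays carried several listed fibroblast markers at high level, but not all of them. Vim, Fn1, Col1a1 and Col1a2 all read 12.19 log2 or more, while Fap lay below 5.86 log2, the 30th percentile of all values, in every array. Thy1 read 10.73 to 11.27 log2 in KO and 6.69 to 7.15 in WT, where the array medians were 7.67 to 7.71. In WT Pdgfra fell to 8.32 and S100a4 to 8.69 log2. The summed level of the 13 measured fibroblast markers was 16.11 to 16.20 log2 in KO and 15.84 to 16.14 log2 in WT. Of 13 macrophage markers 3 (Adgre1, Ptprc and Mpeg1) and of 10 endothelial markers 2 (Kdr and Emcn) lay below the same level in all 6 arrays. The macrophage markers Csf1r and Cd68 did not, at 7.08 to 7.54 and 8.14 to 8.64 log2 in KO and 8.31 to 9.01 and 7.63 to 8.47 log2 in WT. Arrays 1 and 2 of a group correlated at 0.995 to 0.996 over genes, and array 4 with either of them at 0.969 to 0.978.

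**Figure D1:**
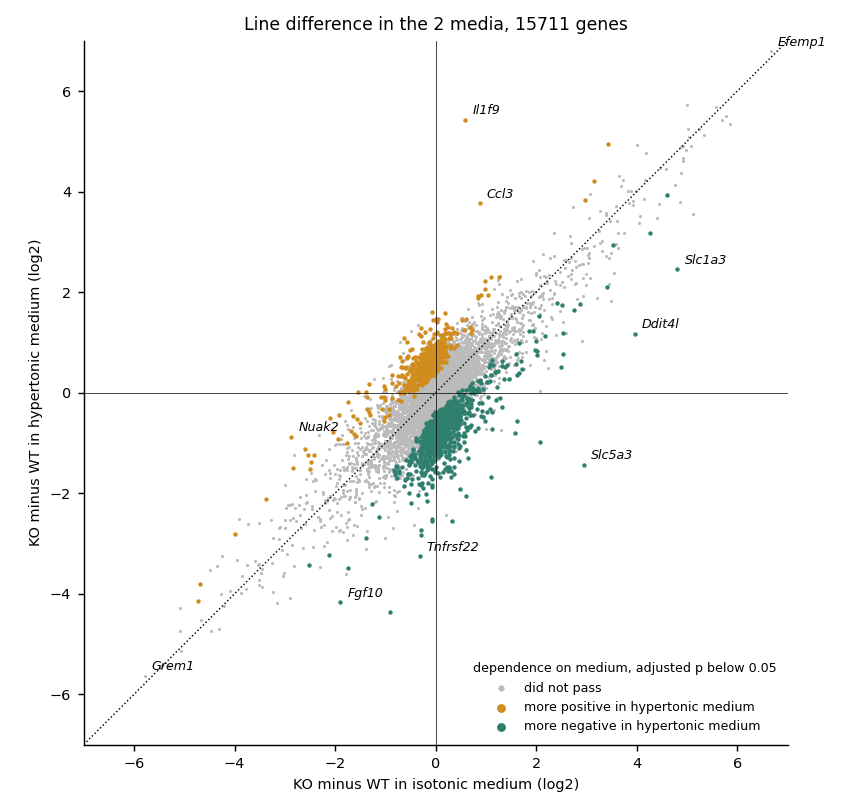
Difference between KO and WT in hypertonic medium (vertical, log2) against the difference in isotonic medium (horizontal, log2), 1 point per gene for 15711 genes, with the dotted line marking equal differences. Of the 1215 genes with at least 2-fold hypertonic differences 1115 have the same sign on both axes, and Il1f9 (5.43 against 0.58) and Slc5a3 (-1.44 against 2.94) lie far from it.

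The comparison in hypertonic medium asks how far the lines differ under the condition in which NFAT5 is active. Of 15711 genes tested, 2173 were higher and 2834 lower in KO at a limma adjusted p below 0.05, which is 13.8% and 18% of the genes and 31.9% in both directions. At least 2-fold differences numbered 1215 (7.73%), 467 higher (2.97%) and 748 lower (4.76%). The 3 KO arrays did not overlap the 3 WT arrays for 7035 genes (44.8%), 3420 of them higher (21.8%) and 3615 lower (23%). Differences of 3 log2 or more were found for 60 genes higher and 52 genes lower in KO. The median difference over all genes was 0.04 log2, and centring each array on its median moved it to 0.18. That scaling also turned the split of calls from 2173 higher and 2834 lower to 4812 higher and 2085 lower, a share of higher calls of 69.8% against 43.4%. The sign turned for 0 of the 5007 called genes under any of the 3 scalings tried.

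Between KO and WT in isotonic medium 2298 genes differed, 14.6% of those tested, 1223 of them higher (7.78%) and 1075 lower (6.84%). Of these 862 differed at least 2-fold (5.49%), 462 higher (2.94%) and 400 lower (2.55%), and these arrays share none with the hypertonic ones. Both comparisons called 1542 genes, which is 30.8% of the hypertonic and 67.1% of the isotonic calls, and 1481 of them differed in the same direction. Of the 1215 genes with at least 2-fold differences in hypertonic medium, 1115 had the same sign in isotonic medium. The line difference itself depended on the medium for 1492 genes (9.5%), 526 with a more positive (3.35%) and 966 with a more negative difference (6.15%) in hypertonic medium. Of these 386 depended on it at least 2-fold (2.46%), 91 in the positive (0.579%) and 295 in the negative direction (1.88%). Centring the arrays turned that split to 1297 and 561, and a block for the array number raised the count to 2280. The count fell to 994 without hypertonic KO array 1, to 911 without hypertonic KO array 2 and to 833 without hypertonic WT array 2.

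Nfat5, the targeted gene, was read first. Its level in arrays 1, 2 and 4 was 10.13, 10.22 and 9.73 log2 in hypertonic KO cells, against 10.77, 10.46 and 10.18 in hypertonic WT cells. The highest KO array lay above the lowest WT array, so the groups overlapped. The difference of -0.44 ± 0.16 (SE, n = 3 each) did not pass (limma adjusted p = 0.0503), while it passed in the fit with the array number as block (0.00591), without hypertonic KO array 2 (0.0426) and without hypertonic WT array 4 (0.0171). The probe set is not tied here to the deleted stretch of the gene, so its level does not check the genotype.

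Genes for osmolyte uptake and other known NFAT5 targets were mostly lower in KO in hypertonic medium. Of 15 tested, 9 were lower, 2 higher (Ddit4l and Smpd3), and 4 did not pass. With any 1 of the 6 arrays left out 1 was higher and 8 to 10 were lower. Their median difference was -0.70 log2, against 0.04 for all genes, and 73.3% of them were called, against 31.9% of all genes. In isotonic medium 3 were higher and 3 lower, with a median of 0.06 log2 (40% called, against 14.6% of all genes). The line difference depended on the medium for 4 of them, all more negative in hypertonic medium (26.7%, against 9.5% of all genes). The taurine transporter gene Slc6a6 read 10.05, 10.34 and 9.35 log2 in KO and 12.38, 12.25 and 12.54 in WT, a difference of -2.48 ± 0.25 (limma adjusted p = 2.71e-06). All KO arrays lay below all WT arrays, and the difference was of similar size in isotonic medium (-2.33 ± 0.25). Aqp1, a water channel, read 7.90, 7.77 and 7.72 log2 in KO and 11.41, 10.80 and 9.28 in WT, with the WT arrays far apart (-2.70 ± 0.54, limma adjusted p = 0.0012). Hspa4l, a chaperone gene of the Hsp110 family, read 6.66, 6.62 and 6.59 log2 in KO and 10.29, 10.29 and 8.63 in WT. It was 8.64-fold lower in KO (-3.11 ± 0.38, limma adjusted p = 2.16e-05). In isotonic medium Hspa4l was also lower (-1.39), a call lost without isotonic KO array 2 or 4 or isotonic WT array 1 or 2. Its dependence on the medium did not pass, but did without hypertonic WT array 4 (limma adjusted p = 0.00455).

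Slc5a3, which takes up myo-inositol, differed in opposite directions in the 2 media. In hypertonic medium it read 10.19, 10.34 and 9.43 log2 in KO and 11.75, 11.63 and 10.88 in WT, and in isotonic medium 11.67, 11.75 and 11.09 in KO and 8.26, 8.68 and 8.75 in WT. KO was thus below WT in hypertonic medium (-1.44 ± 0.29, limma adjusted p = 0.0013) and above it in isotonic medium (2.94 ± 0.29, limma adjusted p = 2.5e-06), with no overlap in either. Mrps6 is the next gene by start position in GRCm38.p6, with overlap with Slc5a3 not checked, and was chosen after its values were seen. It had the same pair of signs, with -0.98 ± 0.29 in hypertonic and 2.07 ± 0.29 in isotonic medium. Its hypertonic call was lost without KO array 4 (0.0672), WT array 1 (0.0824) or WT array 2 (0.0767).

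The betaine transporter gene Slc6a12 read 6.93, 7.05 and 7.47 log2 in KO and 9.39, 9.04 and 7.0 in WT, so that WT array 4 lay among the KO arrays. The difference of -1.33 ± 0.44 passed (limma adjusted p = 0.0309), and it became -2.07 without WT array 4. The call was lost without KO array 1 (0.0978), KO array 2 (0.0831), WT array 1 (0.147) or WT array 2 (0.131). Ddit4l, whose product restrains mTORC1, was higher in KO by 1.17 ± 0.42 (limma adjusted p = 0.045) and lost its call without any 1 of the 6 arrays (0.0531 to 0.129). In isotonic medium Ddit4l was higher in KO by 3.96, and its dependence on the medium of -2.79 passed. Smpd3, a neutral sphingomyelinase gene, was higher in KO by 1.91 ± 0.20. The kinase gene Sgk1 (-0.90 ± 0.17) and the Hsp70 gene Hspa1a (-0.70 ± 0.12) were lower. The amino acid transporter gene Slc38a2 differed by 0.23 ± 0.14, which did not pass (0.218), but did after centring (0.0375).

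**Figure D2:**
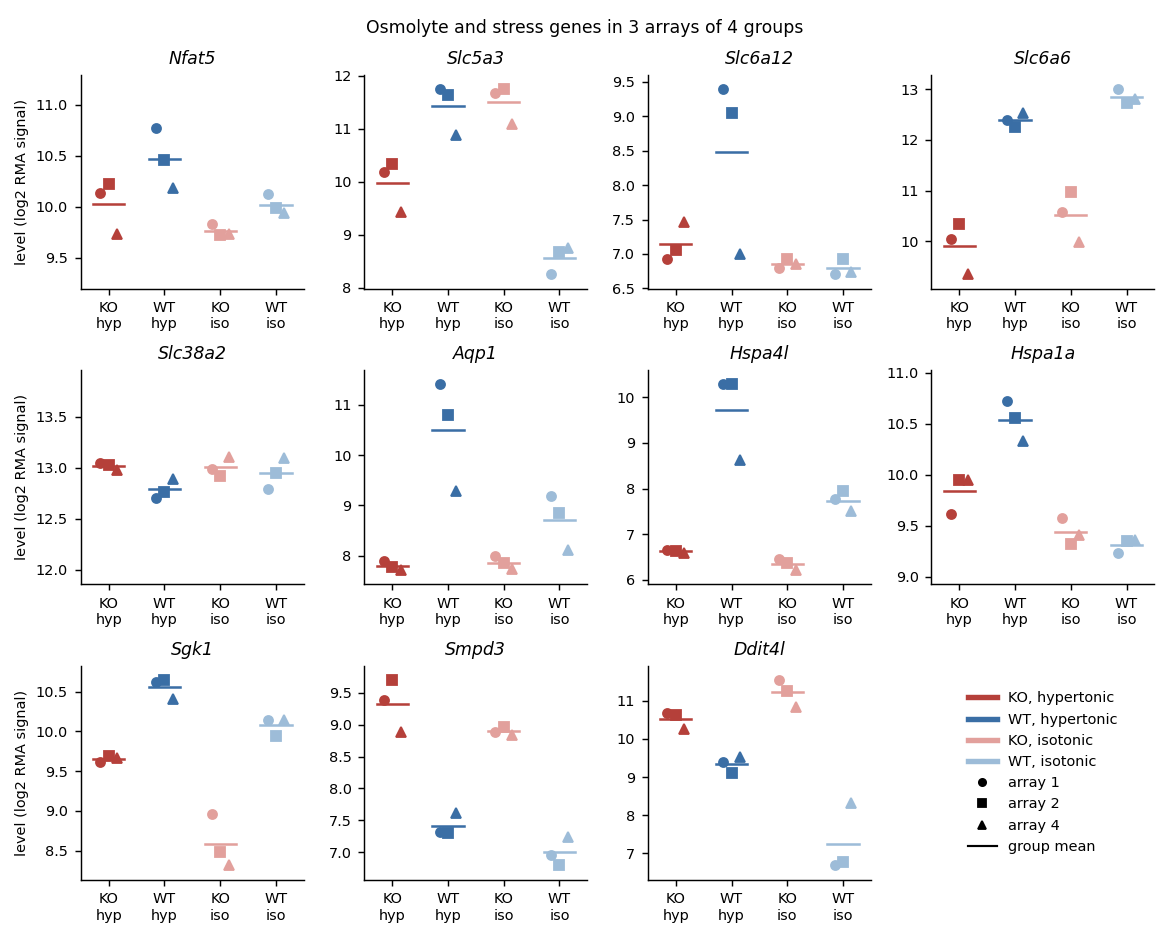
Level (vertical, log2 RMA signal, each panel with its own range) of 11 osmolyte and stress genes in both lines, KO left of WT, in hypertonic (hyp) and then isotonic (iso) medium, with 1 symbol per array and a line at the group mean. Slc5a3 is lower in KO than in WT in hypertonic medium and higher in isotonic medium, and for Slc6a12 WT array 4 (7.0) sits among the KO arrays.

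Volume and chaperone genes varied in both directions. Of 21 ion transporter and channel genes for cell volume, 7 were lower and 4 higher in KO, or 5 and 6 after centring. In the main fit 52.4% were called, against 31.9% over all genes. Slc12a2, the sodium-potassium-chloride cotransporter of cell volume recovery, was lower, with a difference of -1.22 ± 0.27, as were its activating kinase gene Stk39 (-1.06 ± 0.19) and the sodium pump subunit gene Atp1b3 (-0.82 ± 0.14). The count of lower genes was 4 without KO array 4, and that of higher genes 2 without KO array 1, KO array 2 or WT array 4. Among 17 heat shock genes 4 were lower and 4 higher (47.1% called), or 4 and 7 after centring. Among the lower ones were Hspa4l and Hspa1a, which are also counted in the osmolyte list above. The small heat shock genes Hspb1 and Cryab were lower as well, with differences of -2.45 ± 0.23 and -0.75 ± 0.10. The higher ones, named after their values were seen, were Hspb8, Hsf2, Bag3 and Dnajb4, and 1 of them was left without KO array 1, KO array 2 or WT array 2, and 2 without WT array 4.

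The largest increase in KO was in a gene of the extracellular matrix, as were others among the 12 largest. Efemp1, which encodes fibulin-3, read 12.83, 12.96 and 13.08 log2 in KO and 5.81, 6.0 and 6.68 in WT, a 111-fold difference (6.79 ± 0.25, limma adjusted p = 2.78e-11). The WT arrays lay near 5.86 log2, the dim end of these arrays. Prelp, a leucine-rich matrix protein gene, read 12.30, 12.41 and 12.80 in KO and 6.90, 7.12 and 7.49 in WT. Fmod, whose product fibromodulin binds collagen fibrils, read 11.21, 11.26 and 12.01 in KO and 6.21, 6.22 and 6.34 in WT. Prelp and Fmod differed by 5.33 ± 0.26 and 5.24 ± 0.22, and no KO array reached down to a WT array, as the rule for naming them required. Thbs2, a thrombospondin gene, was higher by 5.12 ± 0.14.

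Of 28 tested small leucine-rich proteoglycan, fibulin and related matrix genes, 11 were higher and 2 lower in KO, with a median of 0.39 log2. That is 46.4% called, against 31.9% over all genes. The 11 higher ones ranged from 1.12 to 6.79 log2. In isotonic medium the same list also had 11 higher and 2 lower. The lower ones, named after their values were seen, were Cspg4 (-1.61) and Tnc (-1.04), and 1 of them was left without KO array 4, WT array 1 or WT array 2. Several members are neighbours on the chromosome in GRCm38.p6. Next to Fmod and Prelp lies Optc, which was higher by 0.94 ± 0.17. Ecm2, Aspn, Omd and Ogn also lie side by side and were mixed. Ecm2 and Aspn were higher by 1.48 ± 0.27 and 3.55 ± 0.67, both named after their values were seen. Omd (0.76 ± 0.59) and Ogn (0.23 ± 0.23) did not pass (limma adjusted p = 0.346 and 0.482). Close together lie Dcn, Lum and Epyc, with differences of 4.02 ± 1.37, 2.53 ± 0.39 and 3.41 ± 0.51, all of them picked out after their values were seen. Dcn, the decorin gene, read 12.58, 12.52 and 13.74 in KO and 7.74, 7.37 and 11.68 in WT. Its call (limma adjusted p = 0.0353) was lost without KO array 1 (0.0682), KO array 2 (0.0666), KO array 4 (0.0968), WT array 1 (0.113) or WT array 2 (0.138).

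Of 37 collagen genes tested, 4 were higher and 6 lower, 27.0% called against 31.9% over all genes, and after centring 10 were higher and 5 lower. Col6a2, a chain of the beaded-filament collagen VI, was higher by 2.31 ± 0.23, while Col8a1 and Col11a1 were lower, with differences of -2.29 ± 0.21 and -1.74 ± 0.22. In the fit with the block 8 were higher and 8 lower. Of 25 matrix protease and inhibitor genes 5 were higher and 6 lower (44% called), or 7 and 3 after centring. Mmp23 was higher by 3.94 ± 0.14 and Mmp19 by 2.00 ± 0.42, while Mmp16, a membrane-bound protease gene, was lower, with a difference of -2.51 ± 0.33. The count of lower protease genes was 2 without KO array 1 or WT array 4 and 1 without KO array 2.

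**Figure D3:**
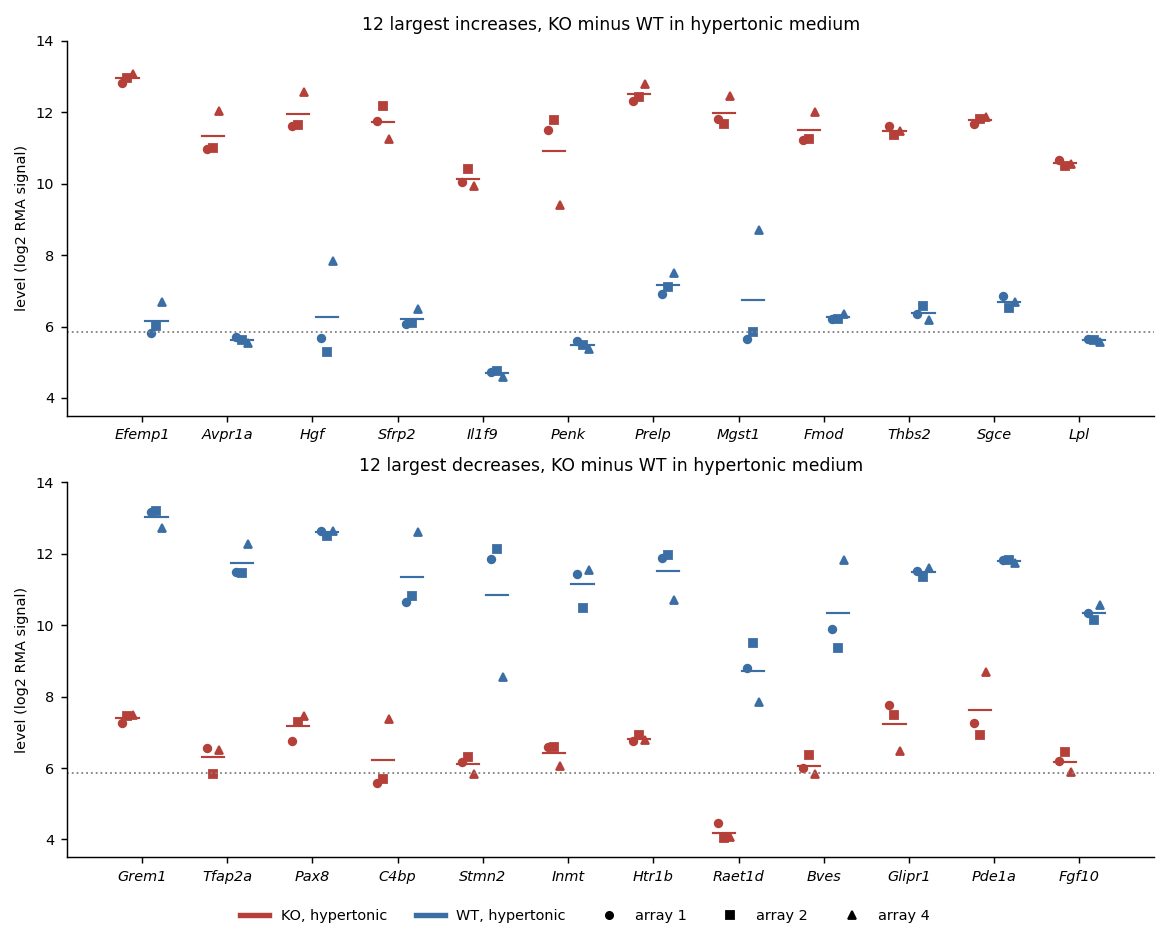
Level (vertical, log2 RMA signal) of the 12 genes with the largest increase (top) and of the 12 with the largest decrease (bottom) in KO against WT in hypertonic medium, chosen among genes whose groups do not overlap and whose call held without any 1 array, with 1 symbol per array, a line at the group mean and a dotted line at 5.86 log2. In Hgf, Mgst1, C4bp, Stmn2 and Bves array 4 of WT stands apart from arrays 1 and 2.

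Several of the largest differences were in genes for secreted signals and their receptors. Avpr1a, a vasopressin receptor gene, read 10.96, 11.01 and 12.03 log2 in KO and 5.69, 5.61 and 5.55 in WT (5.71 ± 0.31). Hgf, the ligand of the receptor Met, read 11.61, 11.65 and 12.57 in KO and 5.67, 5.29 and 7.83 in WT (5.68 ± 0.81). Penk, which encodes enkephalin precursors, read 11.50, 11.79 and 9.41 in KO and 5.59, 5.48 and 5.37 in WT (5.42 ± 0.50). In each of these the KO arrays lay above all WT arrays, as the rule for naming them required, although array 4 stood apart in at least 1 line. For Avpr1a and Penk all these WT arrays lay below 5.86 log2, so the fitted size depends on dim signals, and set against that level the genes were higher by 5.48 and 5.05 log2. Igf2, an imprinted growth factor gene, was higher by 4.47 ± 0.25. Fgf10, which signals from mesenchyme to epithelium, read 6.21, 6.44 and 5.90 in KO and 10.35, 10.14 and 10.56 in WT (-4.17 ± 0.20, limma adjusted p = 6.88e-10). Of 27 cytokine and growth factor genes 5 were higher and 7 lower, 44.4% called against 31.9% over all genes. The count of higher ones was 2 without KO array 1 or KO array 2 and 3 without WT array 1 or WT array 2.

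Wnt and BMP pathway genes included the largest decrease. Grem1, whose product gremlin blocks BMPs, read 7.25, 7.46 and 7.47 log2 in KO and 13.17, 13.18 and 12.71 in WT, a 49.5-fold lower level in KO (-5.63 ± 0.28, limma adjusted p = 1.02e-09). Sfrp2, a secreted Wnt modulator gene, read 11.76, 12.17 and 11.25 in KO and 6.08, 6.09 and 6.48 in WT (5.51 ± 0.23). Its relative Sfrp4 was higher by 2.69 ± 0.38. Of 39 such genes 12 were higher (0.36 to 5.51 log2) and 9 lower (-5.63 to -0.36), with a median of 0.08 log2. That is 53.8% called, against 31.9% over all genes.

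Transcription factors of lineage and patterning differed in both directions. Tfap2a, a neural crest and epidermal factor, read 6.56, 5.82 and 6.51 log2 in KO and 11.48, 11.47 and 12.28 in WT (-5.44 ± 0.31). Pax8, a factor of thyroid and kidney, read 6.76, 7.28 and 7.45 in KO and 12.64, 12.51 and 12.63 in WT (-5.43 ± 0.17). The groups lay far apart in both genes. Among 71 listed lineage factors 19 were higher and 12 lower (43.7% called), or 34 and 9 after centring. Osr2, a factor of limb and palate, was higher by 4.88 ± 0.28, and Sox11 was lower, with a difference of -4.14 ± 0.13. In the Hox clusters Hoxa5 was higher by 0.91 ± 0.21 and Hoxa3 lower, with a difference of -0.73 ± 0.17. Of 21 imprinted genes 8 were higher and 2 lower (47.6% called, against 31.9% over all genes). Sgce and Peg10, imprinted neighbours, were higher by 5.09 ± 0.13 and 4.93 ± 0.24. The nearest genes tested on either side in GRCm38.p6, Casd1 (-0.45 ± 0.18) and Ppp1r9a (-0.24 ± 0.11), did not pass (0.0758 and 0.0993). Farther out, Asb4, also on the imprinted list, was higher (2.71 ± 0.74) and Gng11 lower (-0.59 ± 0.10), both named after their values were seen. The call of Asb4 was lost without KO array 4 (0.0551). The other genes tested within 7 places of Sgce did not pass.

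Adipocyte genes were mostly higher in KO. Of 18 tested, 11 were higher and 3 lower (77.8% called, against 31.9% over all genes). Their median was 0.99 log2, and 1 more was left out as too dim. Pparg, the master regulator of fat cell formation, read 11.53, 11.46 and 10.22 log2 in KO and 6.69, 7.16 and 7.33 in WT (4.01 ± 0.32, limma adjusted p = 2.61e-07). Lpl, the lipoprotein lipase gene, read 10.67, 10.49 and 10.54 in KO and 5.64, 5.61 and 5.58 in WT (4.95 ± 0.13), and Ebf2, a factor of fat precursors, was higher by 3.82 ± 0.24. All KO arrays lay above all WT arrays in these genes, as the rule for naming them required. Lpl and Ebf2 passed the filter through KO alone, since their WT arrays lay below 5.86 log2, and against that level they were higher by 4.71 and 3.56 log2. The lower ones, named after their values were seen, were Dgat1 (-0.70), Dgat2 (-0.69) and Lipe (-0.67), which act in the storage and release of triglycerides.

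Most detoxification genes were higher in KO. Of 20 glutathione transferase, aldehyde dehydrogenase and related genes 13 were higher and 0 lower by limma (65% called, against 31.9% over all genes). An unadjusted p below 0.05 was found for 16. With the block 14 were higher and 3 lower, and 2 were lower without KO array 4 and 1 without WT array 4. Mgst1, a membrane-bound glutathione transferase gene, read 11.80, 11.67 and 12.44 log2 in KO and 5.66, 5.85 and 8.70 in WT, so that WT array 4 stood above the other WT arrays (5.24 ± 1.07, limma adjusted p = 0.00149). Gsta4 was higher by 3.58 ± 0.49 and Aldh1a7 by 2.88 ± 0.45. Among 16 targets of the oxidative stress factor NRF2, 10 were higher and 0 lower by limma (62.5% called), with 12 at an unadjusted p below 0.05 and a median of 0.96 log2. Hmox1, which breaks down haem, read 12.69, 12.95 and 12.76 in KO and 10.78, 10.50 and 10.22 in WT (2.30 ± 0.16). In isotonic medium 5 of these targets were higher and the median was 0.33 log2.

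**Figure D4:**
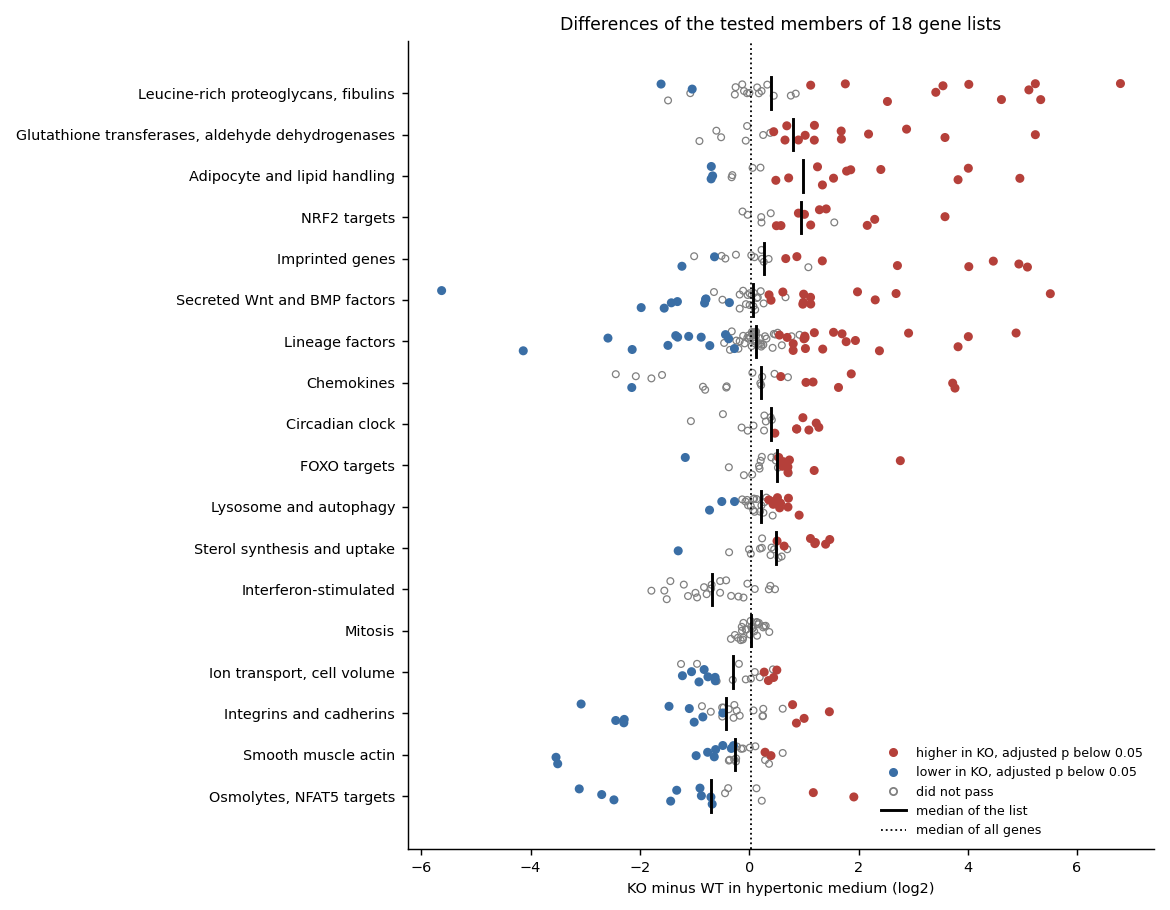
Difference between KO and WT in hypertonic medium (horizontal, log2) for the tested members of 18 gene lists (rows), with filled points for members that passed, a bar at each list's median and a dotted line at the median of all genes, 0.04. The matrix, detoxification, adipocyte and NRF2 lists reach far to the right, and the osmolyte, integrin and smooth muscle lists have medians of -0.70, -0.42 and -0.26.

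Of 24 smooth muscle and actin-linked genes 9 were lower and 2 higher in KO, or 7 and 2 after centring, with a median of -0.26 log2. In the main fit 45.8% were called, against 31.9% over all genes. Cnn1, the calponin gene of contractile cells, read 8.34, 8.78 and 7.75 log2 in KO and 11.91, 11.78 and 11.78 in WT (-3.54 ± 0.24), and Actg2, a smooth muscle actin gene, was lower, with a difference of -3.50 ± 0.22. Both had no overlap between the lines, as the rule for naming them required. The higher ones, named after their values were seen, were Myh11 (0.29) and Mrtfb (0.40), and 0 of them passed without KO array 1 or WT array 4 by limma and 1 without KO array 2, WT array 1 or WT array 2. Of 28 integrin and cadherin genes 9 were lower and 4 higher (46.4% called), or 8 and 7 after centring. The cadherin genes Cdh6 and Cdh10 were lower, with differences of -3.08 ± 0.34 and -2.44 ± 0.28, and so was Itgb3, the beta chain of the vitronectin receptor (-2.29 ± 0.45). The KO arrays of Cdh10 all lay below 5.86 log2, and set against that level the difference was -1.70. The count of higher genes was 2 without KO array 2.

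Inflammatory mediators differed in both directions. Of 22 chemokine genes 7 were higher and 1 lower (36.4% called), with 5 lower in the fit with the block and 2 without KO array 4. Ccl9 was higher by 3.72 ± 0.29, and Ccl3 read 8.38, 8.0 and 11.52 log2 in KO and 5.64, 5.59 and 5.37 in WT (3.77 ± 0.60), or 3.44 higher when 5.86 log2 stands in for the WT arrays, all below it. Ppbp, a platelet-type chemokine gene, was lower, with a difference of -2.15 ± 0.47. In the interleukin-1 family, of 9 genes 3 were higher (44.4% called in both directions, against 31.9% over all genes). These were Il1f9, Il33 (3.51 ± 0.23) and the receptor antagonist gene Il1rn (2.13 ± 0.33). Il1rl2, the receptor for interleukin-36, was the 1 lower gene (-1.58) and was named after its values were seen. Of 12 prostaglandin genes 3 were higher and 3 lower (50% called), or 4 and 2 after centring. Ptges, which makes prostaglandin E2, read 6.38, 6.35 and 6.11 in KO and 10.26, 10.15 and 10.37 in WT (-3.98 ± 0.15), and the receptor gene Ptgfr was higher by 2.72 ± 0.30.

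Other large decreases in KO belonged to genes of varied roles. C4bp, whose product restrains complement, read 5.59, 5.69 and 7.37 log2 in KO and 10.66, 10.82 and 12.60 in WT (-5.14 ± 0.70). Stmn2, a microtubule regulator of neurons, read 6.16, 6.32 and 5.82 in KO and 11.85, 12.13 and 8.56 in WT (-4.74 ± 1.15, limma adjusted p = 0.00496). The lines did not overlap in either gene, as the rule for naming them required. WT array 4 was the highest WT array for C4bp and the lowest for Stmn2. Inmt, a methyltransferase gene (-4.74 ± 0.42), Htr1b, a serotonin receptor gene (-4.70 ± 0.47), and Raet1d, a ligand gene of the natural killer receptor NKG2D (-4.53 ± 0.37), were lower as well. For Raet1d all KO arrays lay below 5.86 log2, and set against that level the difference was -2.86. So were Bves (-4.28 ± 0.68), Glipr1 (-4.25 ± 0.40) and the phosphodiesterase gene Pde1a (-4.17 ± 0.43).

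Some amino acid transporter genes differed by line and by medium. Slc38a4, a carrier of neutral amino acids, was higher in KO by 4.38 ± 0.33 in hypertonic and 4.88 ± 0.33 in isotonic medium. Slc1a3, a glutamate transporter gene, read 11.02, 11.17 and 11.12 log2 in hypertonic KO cells and 8.96, 8.49 and 8.48 in hypertonic WT cells, and its difference was 2.46 ± 0.14 in hypertonic and 4.81 ± 0.14 in isotonic medium. Its relative Slc1a1 was lower in KO, with a difference of -2.81 ± 0.18 in hypertonic and -3.99 ± 0.18 in isotonic medium. Both dependences on the medium passed (limma adjusted p = 3.07e-05 and 0.00944). Of 22 amino acid transporter genes 5 were higher and 2 lower in hypertonic medium, 31.8% called against 31.9% over all genes. The count of higher ones was 3 without KO array 1 or KO array 2, while 4 were lower without WT array 4.

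Of 18 NF-kB subunit and inhibitor genes Rel was higher (0.80 ± 0.14), and Nfkbie (-1.47 ± 0.29) and Nfkbid (-0.53 ± 0.14) were lower, 16.7% called against 31.9% over all genes, and after centring 2 were higher and 2 lower. Of 23 interferon-stimulated genes 0 passed by limma, 0 had an unadjusted p below 0.05, in the fit with the block 1 was higher and 2 lower, and after centring 2 were higher. Their median difference was -0.69 log2, and by array number it was 0.15 log2 between arrays 1, 0.07 between arrays 2 and -1.80 between arrays 4. The part of array 4 in these values was not tested. C4b, a complement gene, was higher by 2.62 ± 0.67. It was among 3 of 13 acute-phase genes that passed, 23.1% against 31.9% over all genes. Of these 3 genes 1 was left without KO array 1, KO array 2, KO array 4, WT array 1 or WT array 2, and 8 of the 13 passed with the block.

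Clock, FOXO and lysosome lists had 41.2%, 42.9% and 44.8% of their genes called, against 31.9% over all genes. Of 17 clock genes 7 were higher and 0 lower by limma, 9 had an unadjusted p below 0.05, 4 were higher without KO array 2, and 1 was lower without WT array 4. Clock, Tef and Cry1 were higher by 1.09 ± 0.15, 0.98 ± 0.17 and 0.87 ± 0.14. Of 21 FOXO targets and factors 8 were higher and 1 lower, among them Pdk4, a brake on pyruvate use (2.77 ± 0.32), and Cited2 (-1.17 ± 0.23). Of 29 lysosome and autophagy genes 10 were higher and 3 lower, or 17 and 1 after centring. Gabarapl1, an autophagosome gene, was higher by 0.91 ± 0.14, the proton pump gene Atp6v1a by 0.72 ± 0.09, and Neu1 was lower, with a difference of -0.73 ± 0.15.

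Of 20 sterol genes 7 were higher and 1 lower (40% called, against 31.9% over all genes). The count of higher ones was 3 without KO array 1, 2 without KO array 2 and 3 without WT array 4. Nsdhl and Tm7sf2, late steps of cholesterol synthesis, were higher by 1.4 ± 0.30 and 1.47 ± 0.34, while Dhcr7, the last step of one branch, was lower, with a difference of -1.30 ± 0.22. Among 18 genes of mTORC1 control 5 were higher and 5 lower (55.6% called). Deptor was higher by 1.61 ± 0.17, while the GATOR1 subunit gene Nprl3 and Tbc1d7, a subunit of the TSC complex, were lower, with differences of -1.11 ± 0.14 and -0.98 ± 0.15. The count of higher ones was 3 without KO array 1, KO array 2, KO array 4, WT array 2 or WT array 4. Of 26 mitosis genes 0 passed by limma, 0 had an unadjusted p below 0.05, and 1 was higher after centring.

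The share of called markers was 33.3% for fibroblasts, 25% for endothelium, 20% for macrophages and 16.7% for keratinocytes, against 31.9% of all genes. Of 12 fibroblast markers 4 were higher, among them Thy1, a surface protein of fibroblasts (4.01 ± 0.17), and Pdgfra (1.86 ± 0.36). Of the macrophage markers Lyz2 was higher (0.59) and Csf1r lower (-1.36), and of the keratinocyte markers Cdh1 was higher (0.79) and Trp63 lower (-0.79), all named after their values were seen, and of these 4 only Csf1r kept its call without any 1 of the 6 arrays. The summed level of endothelial markers was 10.15 to 10.60 log2 in KO and 9.69 to 9.89 in WT, and 2 of 8 passed, Egfl7 (0.53) and Tek (2.44), named after their values were seen, while Pecam1 and Cdh5 read 5.90 to 6.65 log2 over both groups. Of the endothelial calls 1 was left without KO array 1, KO array 2 or WT array 4. That of cartilage and bone markers was 11.91 to 12.73 log2 in KO and 11.32 to 11.60 in WT, with Sox9 (1.19), a cartilage factor gene, called, but not without KO array 1 or WT array 2. The part of these cells in the results was not tested, and in bulk RNA fewer cells of a type and less RNA per cell cannot be told apart.

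Genes with a more positive difference in hypertonic medium were led by a cytokine gene. Il1f9, which encodes the cytokine interleukin-36 gamma, read 10.04, 10.40 and 9.93 log2 in hypertonic KO cells and 4.73, 4.77 and 4.58 in hypertonic WT cells. In isotonic medium it read 5.22, 5.36 and 5.28 in KO and 4.58, 4.70 and 4.82 in WT. The hypertonic KO arrays stood apart from all others, and the difference was 4.85 ± 0.19 log2 larger in hypertonic medium. The other 9 arrays all lay below 5.86 log2, so Il1f9 was tested through the hypertonic KO arrays alone, and set against that level it was higher by 4.27 log2 there. Tnfsf18, the ligand GITRL, read 6.87, 7.63 and 6.83 in hypertonic KO cells and 5.76, 5.24 and 5.52 in hypertonic WT cells, with a difference of 1.6 ± 0.24, against -0.07 ± 0.24 in isotonic medium. Its hypertonic WT arrays also lay below 5.86 log2, and against that level it was higher by 1.25. Of the 4 KO and WT groups only 1, hypertonic KO, averaged above that level. The isotonic difference of Tnfsf18 and its dependence on the medium thus rest on dim signals. Baz1a, a chromatin remodelling subunit gene, differed by 1.29 ± 0.12 in hypertonic and -0.30 ± 0.12 in isotonic medium, and Plcxd2 by 1.09 ± 0.16 and -0.63 ± 0.16.

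Nuak2, an AMPK-related kinase gene, and Tfcp2l1, a transcription factor gene, were lower in KO in both media, but less so in hypertonic medium. Nuak2 differed by -0.88 ± 0.20 in hypertonic and -2.87 ± 0.20 in isotonic medium, and Tfcp2l1 by -0.50 ± 0.11 and -2.09 ± 0.11. For Ccl3 the dependence of 2.89 ± 0.85 had a limma adjusted p of 0.0442. It was lost without hypertonic WT array 1 (0.062), 2 (0.0879) or 4 (0.0796), isotonic KO array 1 (0.0968) or 2 (0.0998), or isotonic WT array 1 (0.0837), 2 (0.0799) or 4 (0.0678). Without hypertonic KO array 4 it was 1.78.

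Among genes with a more negative difference in hypertonic medium were a pair of TNF receptor family genes for decoy receptors. Tnfrsf22 read 8.15, 8.23 and 8.09 log2 in hypertonic KO cells and 11.92, 11.70 and 10.63 in hypertonic WT cells, a difference of -3.26 ± 0.36, against -0.32 ± 0.36 in isotonic medium. Its neighbour Tnfrsf23 differed by -2.06 ± 0.31 in hypertonic and 0.60 ± 0.31 in isotonic medium. The dependence on the medium was -2.94 ± 0.51 and -2.66 ± 0.44 (limma adjusted p = 0.00283 and 0.00223). Prxl2a, a redox gene, read 9.25, 8.93 and 7.97 in hypertonic KO cells and 11.53, 11.62 and 10.69 in hypertonic WT cells (-2.56 ± 0.44), while the isotonic difference was 0.33 ± 0.44.

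Arrdc3, an arrestin-domain gene, read 8.01, 7.74 and 8.74 log2 in hypertonic KO cells and 11.24, 10.67 and 10.10 in hypertonic WT cells. Its isotonic levels were 10.66, 10.46 and 10.12 in KO and 10.48, 10.22 and 10.77 in WT. Only the hypertonic KO arrays stood below the other 9 arrays of these 4 groups. The linker histone gene H1f3 and Prrg4 differed by -2.74 ± 0.35 and -2.84 ± 0.31 in hypertonic medium, against -0.30 ± 0.35 and -0.29 ± 0.31 in isotonic medium. For the phosphatase gene Ptpn22 the dependence of -2.49 ± 0.73 (limma adjusted p = 0.0435) was lost without any 1 of hypertonic KO arrays 1, 2 and 4, hypertonic WT arrays 1 and 2, and the isotonic arrays of both lines (0.0569 to 0.117), while it held without hypertonic WT array 4.

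**Figure D5:**
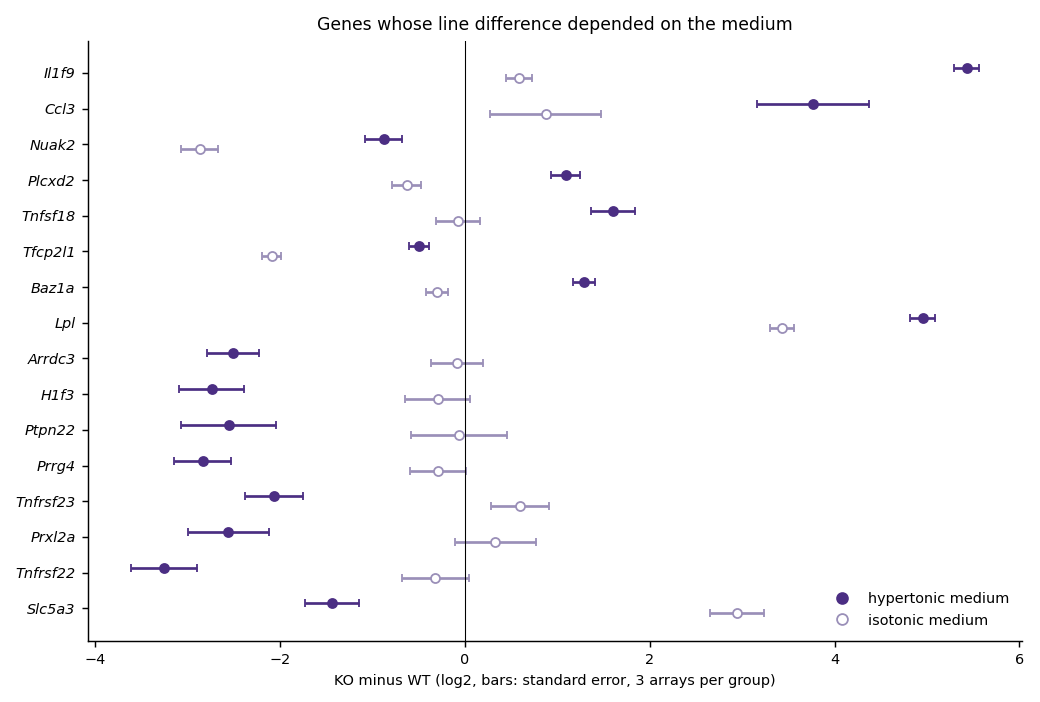
Difference between KO and WT (horizontal, log2, bars show the standard error, 3 arrays per group) in hypertonic medium (filled) and in isotonic medium (open) for the 8 genes with the most positive and the 8 with the most negative dependence on the medium. Il1f9 has 5.43 in hypertonic and 0.58 in isotonic medium, and Slc5a3 -1.44 and 2.94.

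The promoters of genes named above were searched for GGAAA followed by any 4 bases and C, a simplified form of the tonicity-responsive element, on both strands and over the 300 bases around the RefSeq start of GRCm38.p6, 250 before it and 50 after. Of all 27025 promoters given there, 18.7% held it, as did 20.9% of the 215 promoters of genes that were lower in KO in hypertonic medium and at least 2-fold and medium dependent, and 20.0% of the 60 such promoters of higher genes. Of 37 named genes with a promoter there, taken from the largest differences, the osmolyte genes and the medium dependences, 7 held it (18.9%), against 18.9% of the 12343 such promoters of all genes tested. Besides those shown these were Avpr1a, Fgf10 and Nfat5, and of 9 osmolyte and stress genes 2 held it, Nfat5 and Slc6a12, and Slc5a3, Aqp1, Hspa4l, Sgk1, Hspa1a, Slc38a2 and Ddit4l had 0 matches in this window. The osmolyte transporter gene Slc6a12 and the medium-dependent Il1f9, Tnfsf18 and Prxl2a hold it and are shown as the 250 bases before the start, 5′ to 3′ on the gene's strand, with the match in capitals. They lie at chr6:121342324-121342573 on the plus strand for Slc6a12, chr2:24186226-24186475 on the plus strand for Il1f9, chr1:161494407-161494656 on the plus strand for Tnfsf18 and chr14:41013834-41014083 on the minus strand for Prxl2a. The match in Il1f9 is on the opposite strand, and Slc6a12 has 2 matches.
Slc6a12: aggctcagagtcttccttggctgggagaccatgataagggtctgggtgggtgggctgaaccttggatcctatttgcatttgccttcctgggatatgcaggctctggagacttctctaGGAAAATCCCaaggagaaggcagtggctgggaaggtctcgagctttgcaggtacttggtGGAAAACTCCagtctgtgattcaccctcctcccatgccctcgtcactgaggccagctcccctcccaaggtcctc
Il1f9: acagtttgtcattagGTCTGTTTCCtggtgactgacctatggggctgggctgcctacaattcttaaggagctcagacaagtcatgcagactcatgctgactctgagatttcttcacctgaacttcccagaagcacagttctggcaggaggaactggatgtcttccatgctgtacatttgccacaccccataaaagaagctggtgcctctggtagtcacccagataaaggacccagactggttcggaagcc
Tnfsf18: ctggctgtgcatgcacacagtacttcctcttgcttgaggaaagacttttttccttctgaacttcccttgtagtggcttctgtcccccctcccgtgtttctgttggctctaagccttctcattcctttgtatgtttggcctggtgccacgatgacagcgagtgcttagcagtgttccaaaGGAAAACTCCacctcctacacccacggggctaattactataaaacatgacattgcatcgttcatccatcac
Prxl2a: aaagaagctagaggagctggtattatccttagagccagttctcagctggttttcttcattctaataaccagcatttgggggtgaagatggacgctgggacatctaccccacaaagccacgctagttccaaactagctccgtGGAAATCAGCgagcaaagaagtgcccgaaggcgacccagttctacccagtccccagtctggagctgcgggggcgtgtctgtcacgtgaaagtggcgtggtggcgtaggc
These are matches of letters and were not tested as binding sites.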

How the data were processed

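Total RNA of 6 groups of 3 was hybridised to 18 Affymetrix mouse gene arrays. The authors deposited RMA values in log2. Per the submitters' processing notes they used R 2.11.1, and the values were used as they stand. Their genome build was not given in sources at hand, and GRCm38.p6 served for names, neighbours and promoters. Of 34760 probe sets 21640 name 1 gene, 1321 several and 11799 none. For 19937 genes the brightest probe set on average stood for the gene, with more than 1 to choose from for 954. A gene was tested if its brightest group averaged over 5.86 log2, the 30th percentile of the deposited values, which left 15711, and no detection flags were used.

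limma 3.58.1 in R 4.3.3 fitted all 18 arrays with a mean for every group (residual degrees of freedom 12, prior 3.29), with Benjamini-Hochberg adjustment over all genes tested in each contrast. Isotonic KO array 1 is KO by its title and wild-type by its genotype label, and was kept as KO. It enters the hypertonic contrast only through the shared spread.

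The members, the 52 gene lists and the rules for naming were chosen with earlier results of these data known. Named were the 12 largest increases and decreases, up to 3 leading members of lists with at least 3 calls, 11 osmolyte and stress genes whether called or not, and the 8 largest medium dependences in each direction. Leading genes had to be called without overlap between the lines, keep the call without any 1 of the 6 hypertonic arrays, and not be gene models or multi-copy genes.

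After removing group means, KO and WT arrays of the same number in hypertonic medium correlated at 0.156 to 0.246 over genes. Between the lines, array 1 with array 2 gave 0.142 and 0.210, and array 4 with array 1 or 2 gave -0.237 to -0.180. Within a line, arrays of the same number in the 2 media correlated more, at 0.494 to 0.719 in KO and 0.361 to 0.751 in WT. The main fit holds no term for the number. The pairing comes from the titles' numbers, whose meaning is not stated. Arrays give no counts, so their number limits the precision. On simulated data of 15711 genes the hypertonic contrast called 82 of 100 genes given a shift of 1 log2 and 98 of 100 given 2 log2, and 7 of its 187 calls were false. There the noise was drawn independently for every gene and array, and no other genes were shifted. The data hold correlated arrays and far more calls, so these rates may not carry over. Alternatives were other filters, probe set means, 3 scalings, priors, array weights, fewer groups, the replicate block, and arrays left out.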

Additional observations from a re-analysis of the deposited data

Results flagged for a closer look

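The genes below were singled out because their difference between KO and WT differed between hypertonic and isotonic medium by the test of that difference in limma (adjusted p below 0.05). Each value is the KO minus WT difference in hypertonic medium less that in isotonic medium, in log2, with 3 arrays per group. Of all genes tested 9.5% passed this test, and the cause of none was tested.

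More positive in hypertonic medium were the cytokine and chemokine genes Il1f9 (4.85), Ccl3 (2.89) and Tnfsf18 (1.67), the kinase gene Nuak2 (1.99), and Plcxd2 (1.72), Tfcp2l1 (1.59), Baz1a (1.59) and Lpl (1.52). So were Hmox1 (1.2), Slc1a1 (1.17), the clock genes Cry1 (1.14) and Clock (0.79), Jund (0.91), Gabarapl1 (0.72), Rel (0.68), Dnajb9 (0.68) and Sox11 (0.60).

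More negative were the transporter genes Slc5a3 (-4.38) and Slc1a3 (-2.35), the decoy receptor genes Tnfrsf22 (-2.94) and Tnfrsf23 (-2.66), and Prxl2a (-2.89), Ddit4l (-2.79), Prrg4 (-2.55), Ptpn22 (-2.49), H1f3 (-2.44) and Arrdc3 (-2.43). So were Fgf10 (-2.27), Dhcr7 (-1.94), Tbc1d7 (-1.29), Nprl3 (-1.15), the chaperone genes Hspa1a (-0.83) and Cryab (-0.51), and Mmp23 (-0.67).

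The call was lost in at least 1 fit with 1 array left out for Ccl3, Clock, Cryab, Gabarapl1, Jund, Mmp23, Ptpn22, Rel and Sox11.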

How the results depend on the processing

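Of the 122 genes picked by the naming rule, 115 kept direction and side of the threshold for the hypertonic difference in all of up to 20 alternatives, and 0 turned sign. The others are Nfat5, Slc6a12, Ddit4l, Slc38a2, Dnajb9, Sel1l and Syvn1. Except for the osmolyte and stress genes, naming already required a call that held without any 1 hypertonic array. For the leading genes those fits, which are among the alternatives, could thus not change the outcome and do not test stability. Dnajb9 and Syvn1 lost the call with only the arrays of the contrast (0.0535 and 0.0526), and Dnajb9 (0.128) and Sel1l (0.0628) with a block within each line. Sel1l also lost it after centring (0.0694). Among genes named outside the rule Mrps6, Hspb8, Hsf2, Dnajb4, Cspg4, Tnc, Dcn, Asb4, Myh11, Mrtfb, Egfl7, Sox9, Lyz2, Cdh1 and Trp63 lost the call in at least 1 fit with 1 array left out. The count of genes called for the hypertonic difference, 5007, was 3829 to 4879 with 1 array left out and 8403 with array weights, whose fit stopped before converging. It was 6150 with the array numbers as a block, which kept 5003 of the 5007 calls. For the isotonic difference the count of 2298 was 1724 to 2063 with 1 array left out, 3970 with array weights and 3809 without the arrays of number 4. For the dependence on the medium the count of 1492 was 833 to 1749 with 1 array left out, 4241 with array weights, 2280 with the replicate block, 3022 with the block within each line and 2807 without the arrays of number 4. The causes were not tested. Among those 122 genes the block changed the call of 1, Nfat5. Of the 5007 calls 3219 held without any 1 hypertonic array, as did 1079 of the 1215 of at least 2-fold. Requantiling the arrays gave 2686 higher and 2557 lower calls, and cyclic loess 2432 and 2736. Of the hypertonic counts not printed above, all lay within 1.5 times of 5007. Signals near the dim end limit folds such as that of Efemp1, since WT levels there are close to background.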
